A study of Mus musculus with 111 samples.

Results

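The 42 genes described here encode the machinery that copies and divides the genome: the replication helicase and clamp, the enzymes that supply DNA precursors, the cyclins and their kinases, and the proteins of the mitotic spindle, centromere and cleavage furrow. They were taken by gene symbol from the array platform's annotation, where 18194 genes had a probe set naming that gene alone. Of the 42 genes, 41 had such a probe set and all 41 passed the filter on low signals, and each was represented by its probe set of highest mean. No expression value of Ccnb1, which encodes cyclin B1, is given here. Ect2, Melk and Ttk were above the filter level on 0, 2 and 1 of the 94 arrays outside the right legs of tenotomy mice and passed only through those legs, so their differences from right legs are given as values and support nothing. The measured genes fall into 11 genes of DNA replication and nucleotide supply, 2 cyclin E genes of the G1-to-S transition and 28 genes of mitosis.

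The arrays measured RNA of the gastrocnemius, the main calf muscle, of male C57BL/6 mice that were 8 weeks old. Disuse was modelled by casting a hindlimb or by cutting the Achilles tendon (tenotomy), and muscles were taken at days 2, 7 and 14. Cast right legs numbered 10, 7 and 9 at the 3 days, against 9, 8 and 9 uncast left legs of the cast mice. Tenotomy mice gave 5, 7 and 5 left legs labelled tenotomy and 5, 7 and 5 right legs labelled control. Sham operation gave 3, 7 and 8 right legs at days 2, 7 and 14, and 7 right legs came from naive mice, for 111 arrays from 70 mice in all. For tenotomy the 2 sources conflict: the series' design text has the right tendon cut and the left leg as control, while each sample's own label gives tenotomy to the left leg. The sample labels were kept, and the leg side is given with every value, so that a difference written as left minus right changes sign under the other reading. In both models the side of the leg went with the treatment label, and the cast, tenotomy, sham and naive mice were different animals.

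In a dividing cell the minichromosome maintenance proteins Mcm2 to Mcm7 form the helicase that opens DNA at replication origins, and Pcna is the sliding clamp that holds the polymerases. Ribonucleotide reductase, thymidylate synthase and thymidine kinase make the deoxynucleotides. Cyclin A2 and the B-type cyclins drive Cdk1, whose activity takes the cell into mitosis, where the spindle, the chromosomal passenger complex and the anaphase-promoting complex act in turn. The nuclei of mature muscle fibres do not divide, whereas satellite cells, fibroblasts, endothelial cells and infiltrating leukocytes in the same tissue can. In RNA of a whole muscle, more dividing cells and more RNA per dividing cell cannot be told apart.

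The promoters of 5 of the genes are shown because members of this group are known to be driven from shared DNA words. In mammals the cell-cycle homology region (CHR) is the word bound by the MuvB-containing complexes of mitotic genes, CCAAT is bound by NF-Y, and E2F words mark many replication genes. The windows run from 250 bases before to 50 after a RefSeq start of each gene on build GRCm38.p6. For Mki67 and Mcm5 that start lies inside the gene, whose outer end is at 135716450 and 75109468. Capitals mark every CHR word (the letters TTTGAA or their variant with a central CpG, TTCGAA), every CCAAT and every E2F word on either strand. The E2F words searched were TTTGGCGC, then TTTCCCGC, then TTTCGCGC and then TTTGCCGC, and they overlap each other in Mcm5 and Mcm6. Cdk1 lies at chr10:69352863-69353162 on the minus strand, Ccnb2 at chr9:70421505-70421804 (minus), Mki67 at chr7:135716330-135716629 (minus), Mcm5 at chr8:75109259-75109558 (plus) and Mcm6 at chr1:128359656-128359955 (minus).
Cdk1: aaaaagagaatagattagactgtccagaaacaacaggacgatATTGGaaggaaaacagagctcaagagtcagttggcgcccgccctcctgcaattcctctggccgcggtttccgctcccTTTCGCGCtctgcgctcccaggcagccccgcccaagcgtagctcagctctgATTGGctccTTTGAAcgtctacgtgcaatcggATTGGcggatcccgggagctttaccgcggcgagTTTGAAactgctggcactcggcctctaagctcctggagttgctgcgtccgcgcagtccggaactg
Ccnb2: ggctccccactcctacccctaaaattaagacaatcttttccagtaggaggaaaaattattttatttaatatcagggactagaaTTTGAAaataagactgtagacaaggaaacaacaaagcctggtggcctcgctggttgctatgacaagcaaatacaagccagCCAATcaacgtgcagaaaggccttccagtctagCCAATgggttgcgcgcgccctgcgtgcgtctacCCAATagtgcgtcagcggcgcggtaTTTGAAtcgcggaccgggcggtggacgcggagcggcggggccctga
Mki67: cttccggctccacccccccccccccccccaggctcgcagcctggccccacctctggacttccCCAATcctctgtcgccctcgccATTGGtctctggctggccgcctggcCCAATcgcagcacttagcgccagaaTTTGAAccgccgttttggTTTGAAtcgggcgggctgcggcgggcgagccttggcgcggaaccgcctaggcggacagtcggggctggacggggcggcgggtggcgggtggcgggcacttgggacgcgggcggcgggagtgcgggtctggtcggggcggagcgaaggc
Mcm5: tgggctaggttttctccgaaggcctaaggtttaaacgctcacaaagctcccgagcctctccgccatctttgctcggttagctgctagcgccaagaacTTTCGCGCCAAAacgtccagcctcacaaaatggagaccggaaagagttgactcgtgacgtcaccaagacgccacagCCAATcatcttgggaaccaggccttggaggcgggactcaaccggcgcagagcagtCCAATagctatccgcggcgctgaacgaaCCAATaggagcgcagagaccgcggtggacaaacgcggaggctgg
Mcm6: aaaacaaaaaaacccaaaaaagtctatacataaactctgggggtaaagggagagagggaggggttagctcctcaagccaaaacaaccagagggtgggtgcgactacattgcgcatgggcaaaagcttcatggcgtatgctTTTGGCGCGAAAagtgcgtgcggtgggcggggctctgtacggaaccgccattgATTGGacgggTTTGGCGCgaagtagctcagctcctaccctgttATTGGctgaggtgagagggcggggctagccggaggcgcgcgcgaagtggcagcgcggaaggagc

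Promoters were found for 36 of the 42 genes, Ccnb1 among them. A CHR word lay in 19 of 25 mitosis promoters (76.0%) and in 2 of 10 replication promoters (20.0%), against 21.7% of all 27025 promoters and 20.2% of the 17492 protein-coding ones. CCAAT lay in 21 of 25 mitosis promoters (84.0%) and 8 of 10 replication promoters (80.0%), against 41.1% of all promoters. An E2F word was found in 1 of 25 mitosis promoters (4.0%), that of Cdk1, and in 4 of 10 replication promoters (40.0%), against 2.6% of all. CHR and CCAAT occurred together in 18 of 25 mitosis promoters (72.0%) and in 8.61% of all promoters. These matches describe the letters only, and no word is shown here to be bound.

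Signals are in the array's linear intensity units, scaled by the authors to a common trimmed mean between 99.95 and 99.97 per array, and the number of arrays limits the precision. The filter asked for a signal above the array's 40th percentile, which lay between 9.65 and 17.84 units. Correlations between arrays ranged from 0.9069 to 0.9809, and no 2 arrays were identical. The tissue label fits its markers: the summed signal of 7 fibre genes lay between 98640 and 130500 in naive muscle. In the 6 groups of cast mice, control legs included, its medians were lower, between 54800 and 64860, with single arrays from 32850 to 112600. The cause of this was not tested. Nothing in the labels says that muscles were pooled. On 7 arrays the summed signal of 5 neutrophil markers was 1992 or more, against at most 1015 on every other array. These were 2 cast legs of day 7 (4291 and 4616), 3 cast legs of day 14 (1992, 2147 and 3652), 1 left tenotomy leg of day 2 (2327) and 1 control leg of a cast mouse of day 14 (4248). The fits were repeated without these arrays, a check added after the values were seen. Both counts are given where a count moved by over 1.5 times, with values for some of the named calls that were lost.

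Each class was first summarised per array as the mean log2 distance of its genes from naive muscle. In right legs of tenotomy mice the mitosis level lay between 1.58 and 1.86 at day 2, between 0.68 and 1.70 at day 7 and between 0.22 and 0.67 at day 14. In left legs of the same groups it lay between -0.13 and 0.80, between -0.09 and 0.38, and between -0.00 and 0.35. Right and left legs thus overlapped at day 14 and not at days 2 and 7. The replication level followed the same order in right legs, with medians of 1.41, 0.78 and 0.38. In left legs its medians were -0.01, 0.02 and 0.03. Cast legs had median mitosis levels of -0.08, 0.53 and 0.52 at days 2, 7 and 14, against 0.13, 0.23 and 0.18 in the control legs of cast mice.

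**Figure D1:**
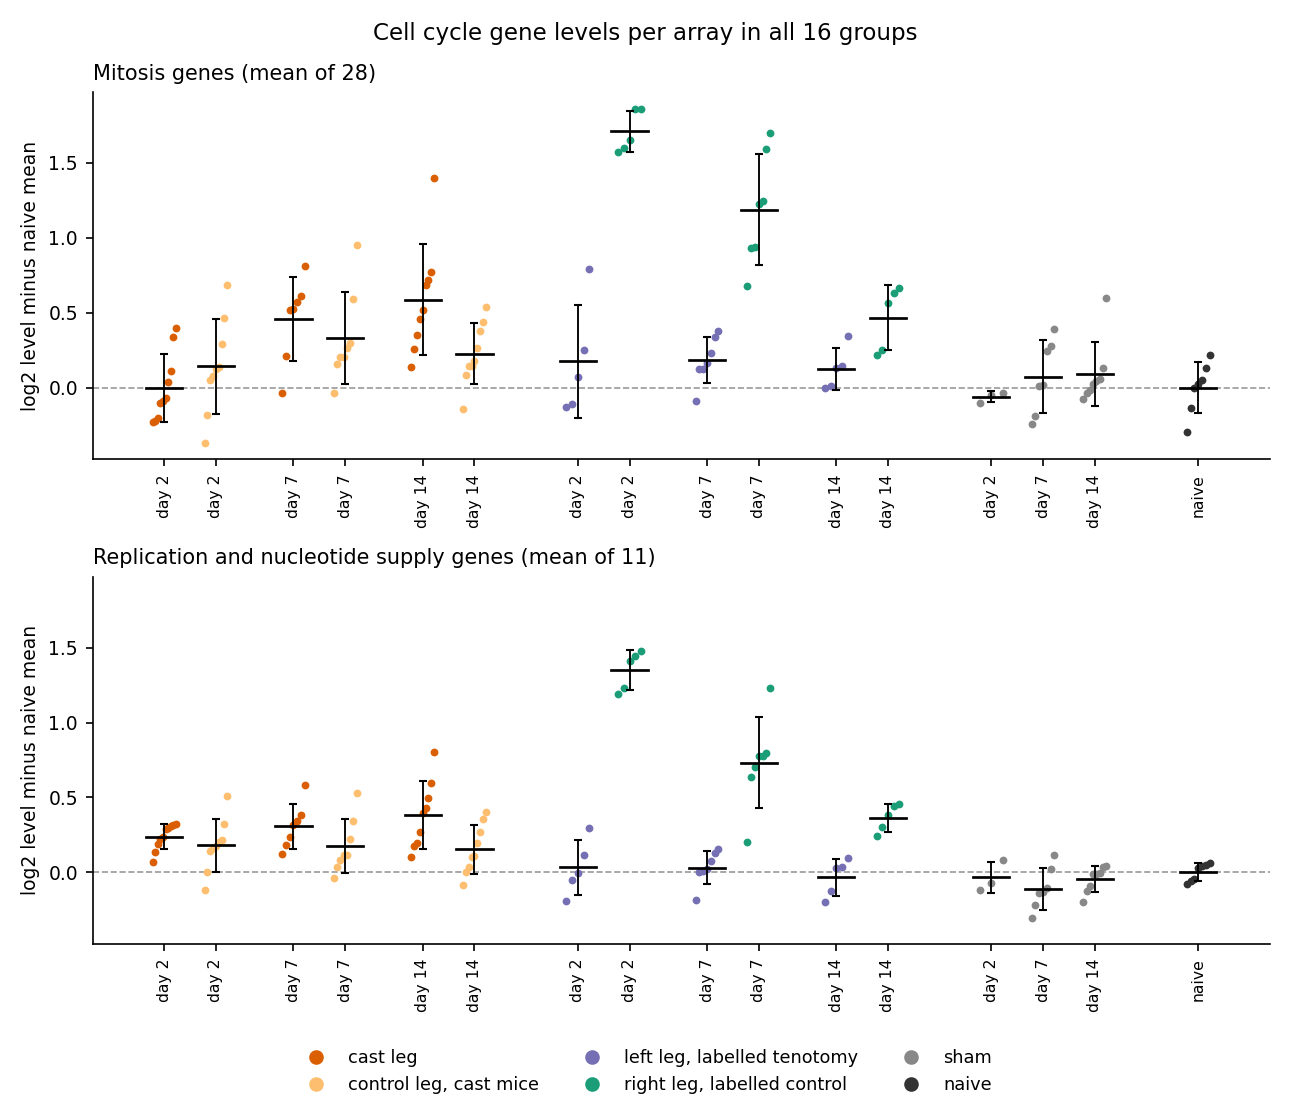
Mean log2 level of the mitosis genes (top) and replication genes (bottom) minus the naive mean, 1 point per array (y axis, log2 units), in each of the 16 groups (x axis), with bars for the mean and SD. Right legs of tenotomy mice at day 2 lie between 1.58 and 1.86 for mitosis genes and between 1.19 and 1.48 for replication genes, above all the other groups' medians.

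At day 2 of tenotomy, 32 of 41 genes were lower in the left leg labelled tenotomy than in the right leg labelled control, and 0 were higher (0 also at an unadjusted p under 0.05). In the same limma model 36.8% of the 16008 tested genes passed the threshold in either direction and 20.8% were lower. Leaving out Ect2, Melk and Ttk, 30 of 38 were lower. The median left-minus-right difference was -1.44 on the log2 scale over the 41 genes, against -0.02 over all tested genes. Replication genes gave 10 of 11 lower with a median of -1.19, mitosis genes 22 of 28 with -1.55, and the 2 cyclin E genes gave 0 with -0.16. For 29 of the 41 genes every left array was below every right array, as for 13.5% of tested genes. Ect2 and Melk are among these 29 and support nothing.

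Among the replication genes, Mcm5, a helicase subunit, had signals of 11.95, 13.09, 20.18, 21.78 and 42.86 in left legs, against 110.8, 115.1, 138.7, 162.2 and 169.3 in right legs of day 2. The highest left leg was well below the lowest right leg. Mcm5 differed by -2.56 ± 0.28 (log2, SE; adjusted p = 5.1e-13) and was lower in 5 of 5 mice with both legs. Rrm2, the cell-cycle-regulated subunit of ribonucleotide reductase, had 11.55, 15.76, 19.64, 23.75 and 83.35 in left legs, against 133.3, 146.7, 175.4, 176.0 and 249.4 in right legs. A single left leg stood above its group, and still below every right leg, and the difference was -2.65 ± 0.29 (adjusted p = 3.03e-13). Mcm6, another helicase subunit, had 40.99, 48.48, 50.67, 63.53 and 69.65 in left legs, against 139.7, 140.1, 142.5, 166.5 and 194.0 in right legs, a difference of -1.46 ± 0.24 (adjusted p = 2.31e-07).

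Pcna, the clamp, was bright in every group. It had 312.9, 314.6, 320.4, 376.5 and 439.4 in left legs, against 574.7, 611.6, 668.4, 807.9 and 854.1 in right legs, a difference of -0.98 ± 0.11 (adjusted p = 2.62e-13). Tk1, thymidine kinase, had 26.34, 45.58, 47.28, 48.74 and 49.47 in left legs, against 59.12, 73.3, 91.13, 95.25 and 129.7 in right legs (-0.97 ± 0.23, adjusted p = 2.56e-04). Neither gene overlapped between the legs. The other helicase genes Mcm2, Mcm3, Mcm4 and Mcm7 were lower by -0.95 to -1.41, all in 5 of 5 mice. Probe sets not used gave smaller differences for Mcm2 (-0.38) and Mcm7 (-0.49 to -0.74). They gave -1.21 for Mcm4 and -0.88 to -1.58 for Mcm3. Tyms, thymidylate synthase, was lower by -1.26 ± 0.33 (adjusted p = 0.001), from signals of at most 3.662 in left legs and 14.51 in right legs, below the filter level on every one of these 10 arrays. Its other probe sets gave 0.51, 0.23 and -0.22, so the signs differed, and Tyms is still counted among the lower genes. Rrm1, the large and less cell-cycle-dependent subunit of ribonucleotide reductase, was the replication gene that did not pass the test (-0.11 ± 0.10, adjusted p = 0.445).

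Among the kinases and cyclins, Cdk1 had signals of 0.767, 1.056, 1.178, 14.9 and 16.07 in left legs, against 76.74, 76.95, 87.48, 90.77 and 116.9 in right legs of day 2. Cdk1 differed by -3.43 ± 0.46 (adjusted p = 5.18e-10). Because left signals were near the floor, its size depended on the offset added before the logarithm: it was -4.27 with an offset of 1 and -2.27 with an offset of 16. Ccna2, cyclin A2, had 2.045, 15.88, 20.85, 26.04 and 40.93 in left legs, against 91.63, 93.81, 122.4, 123.6 and 134.5 in right legs (-2.47 ± 0.31, adjusted p = 3.95e-11). Ccnb2, cyclin B2, had 4.748, 8.772, 9.133, 13.38 and 29.56 in left legs, against 34.75, 46.23, 55.63, 64.33 and 64.98 in right legs (-1.86 ± 0.42, adjusted p = 1.47e-04). No left leg reached a right leg for any of these 3 genes. The kinases Aurkb and Plk1 were lower by -1.50 and -1.44, and Cdc20, an activator of the anaphase-promoting complex, by -0.95, each in 5 of 5 mice. The checkpoint and spindle kinases that did not pass were Bub1 (-0.52), Nek2 (-0.17), Aurka (-0.04) and Bub1b (0.02). Melk and Ttk, kinases that passed the filter only through right legs, had differences of -1.56 and -0.78.

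Among the chromosome and centromere genes, Mki67, which encodes the proliferation antigen Ki-67, had 7.007, 10.67, 20.35, 21.53 and 108.5 in left legs, against 130.1, 149.1, 169.1, 176.3 and 177.4 in right legs. Its difference was -2.67 ± 0.36 (adjusted p = 1.07e-09). Birc5, survivin, a subunit of the chromosomal passenger complex, had 1.177, 1.479, 1.558, 4.545 and 36.99 in left legs, against 66.69, 72.76, 80.54, 80.54 and 87.39 in right legs (-3.20 ± 0.43, adjusted p = 5.13e-10). The left leg with the highest values was the same array for Mki67, Birc5 and Rrm2, and it was the left-leg array with 2327 units of neutrophil markers, against 49.2 to 96.46 in the other 4. Without the 7 arrays high in neutrophil markers, Mki67 differed by -3.20, Birc5 by -3.75 and Cdk1 by -3.72, and 32 genes passed the test. Top2a, topoisomerase II alpha, had 8.806, 14.33, 17.45, 24.01 and 40.68 in left legs, against 104.1, 114.8, 120.0, 130.0 and 136.5 in right legs (-2.44 ± 0.34, adjusted p = 1.47e-09). Cenpa, the centromeric histone H3 variant, had 14.58, 17.67, 17.92, 27.17 and 34.29 in left legs, against 59.39, 61.9, 74.98, 76.46 and 77.73 in right legs (-1.54 ± 0.19, adjusted p = 7.49e-11). Cdca8, Cenpf and Cenpe, of the passenger complex and the kinetochore, were lower by -2.40, -1.70 and -1.44.

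Among the spindle and cytokinesis genes, Kif23, a kinesin of the central spindle, had 2.411, 3.379, 4.922, 13.61 and 24.4 in left legs, against 52.15, 60.25, 64.42, 71.93 and 74.52 in right legs. The difference was -2.56 ± 0.37 (adjusted p = 8.23e-09). Of the other central-spindle genes, Prc1 was lower by -1.93 and Racgap1 by -1.87, and Ect2, which passed the filter only through right legs, had a difference of -1.68. The kinesins Kif20a and Kif11 were lower by -1.79 and -1.33, and Nusap1, a microtubule-bundling protein, by -1.53. Tpx2, the spindle factor that binds Aurora A, was lower by only -0.51 ± 0.20 (adjusted p = 0.0336), and its call was lost in 6 of the 10 fits that left out 1 array of these groups, with an adjusted p of up to 0.178. Kif2c, a microtubule depolymerase, did not pass (0.35 ± 0.24).

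**Figure D2:**
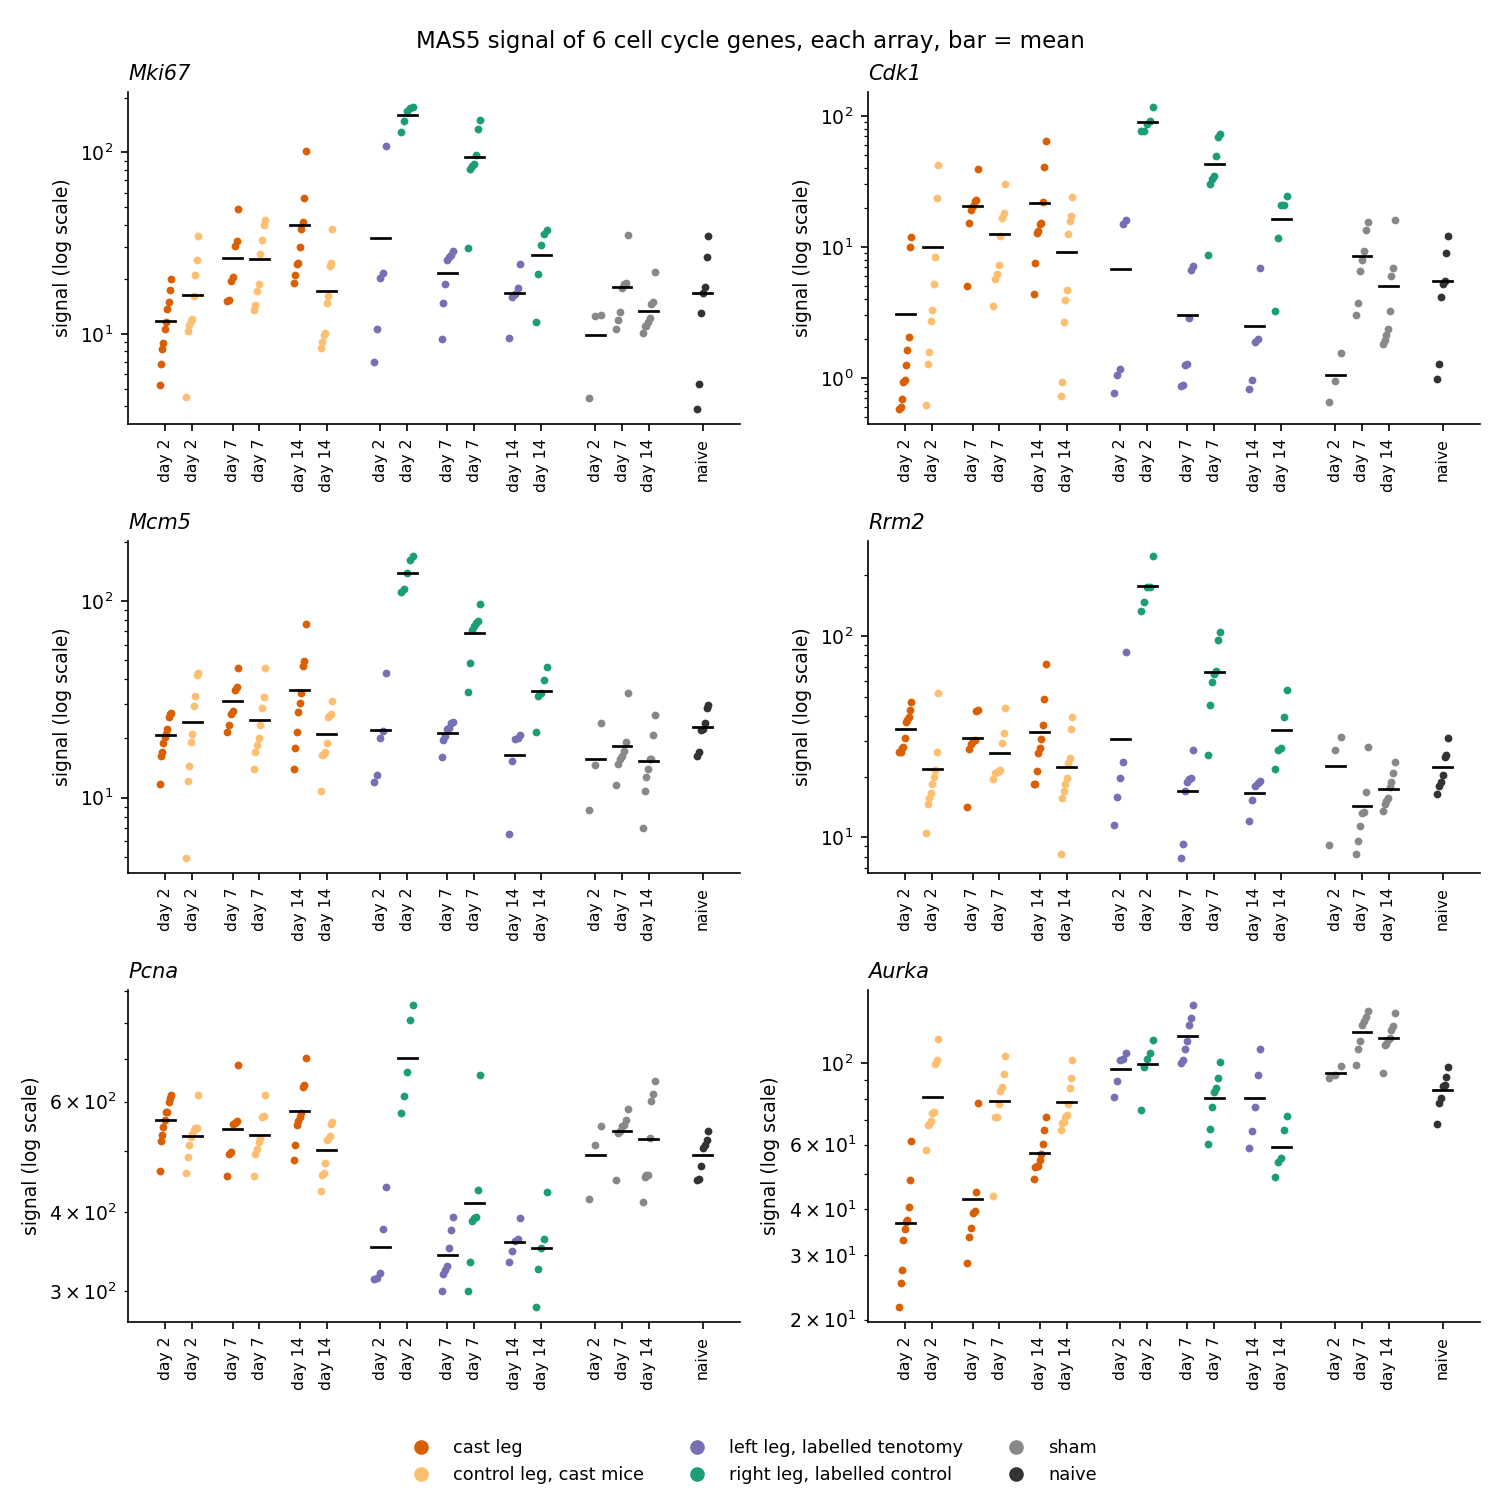
Signal of Mki67, Cdk1, Mcm5, Rrm2, Pcna and Aurka, 1 point per array with a bar for the mean (y axis, array units on a log scale), by group (x axis). For Mki67 the right legs of tenotomy mice at day 2 lie between 130.1 and 177.4, and naive muscles between 3.88 and 34.52.

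At day 7, 25 genes were lower in the left leg labelled tenotomy and 1 was higher, against 33.0% of tested genes called in either direction and 18.4% lower. Leaving out Ect2, Melk and Ttk, 23 of 38 were lower. Over the 41 genes the median difference was -0.83. By class, 8 of 11 replication genes, 17 of 28 mitosis genes and 0 of 2 cyclin E genes were lower. Mki67 had a lowest, median and highest signal of 9.421, 25.5 and 28.67 in left legs, against 29.72, 85.86 and 151.1 in right legs, so that all right legs were above all left legs, 1 of them narrowly. The difference was -1.88 ± 0.31 (adjusted p = 2.91e-07). Birc5 had 1.566, 2.039 and 3.495 in left legs, against 15.08, 43.81 and 77.0 in right legs (-2.83 ± 0.36, adjusted p = 1.66e-10). Cdk1 had 0.862, 1.289 and 7.173 in left legs, against 8.747, 34.55 and 72.73 in right legs (-2.63 ± 0.39, adjusted p = 1.62e-08).

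Top2a and Rrm2 were lower by -2.07 ± 0.28 and -1.70 ± 0.25 at day 7, in 7 of 7 mice. Aurka, Aurora kinase A, was the gene called the other way: it had 100.3, 115.1 and 144.1 in left legs, against 60.06, 83.27 and 100.5 in right legs, a difference of 0.55 ± 0.14 (adjusted p = 7.41e-04) seen in 7 of 7 mice. The legs overlapped slightly for Aurka, the lowest left value (100.3) being just below the highest right value (100.5). Pcna was lower by -0.24 ± 0.09 (adjusted p = 0.0311), and Mcm3, Mcm4 and Mcm7 by -1.04, -0.83 and -0.44, each of the 3 in 7 of 7 mice. Nearest to 0 were Rrm1 (-0.00), Kif2c (-0.05) and Ccne2 (-0.09). In 13 genes all left legs lay below all right legs, as in 3.94% of tested genes.

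At day 14, 8 genes were lower and 3 were higher in left legs, against 23.2% of tested genes called, 13.5% lower and 9.72% higher. The median over the 41 genes was -0.34. The lower genes were Cdk1, Birc5, Cdca8 and Kif11 of the mitosis genes and Mcm3, Mcm5, Mcm6 and Rrm2 of the replication genes. Mcm6 had 5.677, 29.34, 32.12, 66.01 and 72.7 in left legs, against 50.19, 73.5, 77.63, 90.69 and 95.33 in right legs. The groups overlapped, and the difference was -1.15 ± 0.24 (adjusted p = 1.21e-04), lower in 4 of 4 mice. The other probe sets of Mcm6 gave smaller differences at day 14, of -0.31 and -0.33. Mcm5 had 6.539, 15.37, 19.82, 20.13 and 20.9 in left legs, against 21.56, 32.97, 33.92, 39.64 and 46.13 in right legs, without overlap (-0.93 ± 0.29, adjusted p = 0.00992). Birc5 and Cdca8 were lower by -1.44 ± 0.43 and -0.97 ± 0.37 (adjusted p = 0.00789 and 0.0424). Cdk1 had 0.824, 0.969, 1.896, 1.974 and 6.87 in left legs, against 3.27, 11.72, 20.83, 20.9 and 24.51 in right legs (-1.56 ± 0.46, adjusted p = 0.00707), overlapping in 1 array of each leg. Kif11, Rrm2 and Mcm3 were lower by -0.86, -0.85 and -0.54. Mki67 had 9.439, 15.88, 16.65, 17.93 and 24.22 in left legs, against 11.68, 21.35, 30.71, 35.34 and 37.3 in right legs, and did not pass (-0.57 ± 0.37, adjusted p = 0.287).

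The 3 genes higher in left legs at day 14 were Bub1, Tpx2 and Ccne2. Bub1, a spindle checkpoint kinase, differed by 1.07 ± 0.36 (adjusted p = 0.0199), from signals at or below 12.65, under the filter level on all 10 arrays. Its other probe set had the opposite sign, at -0.20. Tpx2 had 26.64, 37.76, 42.56, 46.01 and 51.07 in left legs, against 18.09, 19.6, 24.22, 28.86 and 32.39 in right legs (0.64 ± 0.20, adjusted p = 0.011). Ccne2, cyclin E2, had 49.88, 52.5, 53.59, 54.9 and 60.99 in left legs, against 30.29, 37.71, 40.0, 41.59 and 46.03 in right legs, with no overlap, as in 6.32% of tested genes in that direction. Its adjusted p of 0.0453 rose to between 0.0532 and 0.164 in 9 of the 10 fits that left out 1 array of either group, which lost the call, and to 0.0539 without the arrays high in neutrophil markers. Without left replicate 4, when Ccne2, Cdca8, Kif11 and Mcm5 lost their calls, the count of called genes at day 14 was 7. Nearest to 0 were Rrm1, Kif2c and Ect2, each at 0.01.

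Right legs of tenotomy mice were also set against sham-operated right legs. At day 2, 31 genes were higher and 0 were lower (0 also at an unadjusted p under 0.05), against 35.1% of tested genes called and 19.6% higher, with a median of 1.56 over the 41 genes and 0.04 over all tested genes. Leaving out Ect2, Melk and Ttk, 29 of 38 were higher. Mki67 had 4.46, 12.5 and 12.66 in the 3 sham legs of day 2, below the 130.1 to 177.4 of right legs of tenotomy mice, and differed by 3.63 ± 0.44 (adjusted p = 3.12e-11). Cdk1 had 0.656, 0.945 and 1.539 in the same sham legs, a difference of 4.21 ± 0.56 with the offset used, 5.48 with an offset of 1 and 2.62 with an offset of 16. Birc5, Kif23 and Top2a were higher by 4.02 ± 0.52, 3.07 ± 0.45 and 2.96 ± 0.41. Ccne1, cyclin E1, was higher by 1.24 ± 0.41 (adjusted p = 0.0126), with 24.4 to 49.03 in right legs of tenotomy mice and 5.902, 9.048 and 23.77 in sham legs. Pcna was higher by 0.50 ± 0.13 (adjusted p = 0.00114). For 30 genes every right leg of tenotomy mice was above every sham leg, as for 17.7% of tested genes, and for 1 gene, Kif2c, every one was below, as for 14.4%. Ect2 and Melk are among these 30 and support nothing. Nearest to 0 were Rrm1 (-0.03), Aurka (0.06) and Nek2 (0.09).

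At day 7, 30 genes were higher in right legs of tenotomy mice than in sham legs and 2 were lower, against 41.3% of tested genes called and 23.6% higher. Leaving out Ect2, Melk and Ttk, 27 of 38 were higher. Birc5, Top2a, Mki67, Rrm2 and Ccnb2 were higher by 2.49, 2.22, 2.10, 1.89 and 1.81. Rrm1 (0.04), Kif2c (-0.05) and Ccne1 (0.15) lay nearest to 0. Aurka and Pcna were lower by -0.59 ± 0.14 and -0.41 ± 0.10 (adjusted p = 3.99e-04 and 1.8e-04). Pcna had a lowest, median and highest signal of 300.4, 391.6 and 660.5 in right legs of tenotomy mice, against 450.7, 549.0 and 584.1 in sham legs. At day 14, 11 genes were higher and 2 lower, against 36.0% of tested genes called, 20.6% higher. Of these 11, 7 were replication genes, and Birc5, Kif23, Cdk1 and Top2a were the mitosis genes among them, at 1.61, 1.23, 1.16 and 0.87. Aurka was lower by -0.95 ± 0.15 (adjusted p = 1.91e-07) and Pcna by -0.56 ± 0.10 (adjusted p = 2.77e-06). Bub1b (0.00), Tpx2 (-0.01) and Rrm1 (0.06) lay nearest to 0.

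Left legs of tenotomy mice differed from sham legs in few of the genes. At day 2, 1 gene was lower and 0 were higher (6 higher at an unadjusted p under 0.05), against 10.0% of tested genes called, 4.35% higher and 5.67% lower. At day 7, 2 were higher and 1 lower, against 19.2% called, 9.71% higher and 9.46% lower, and at day 14, 2 were higher and 2 lower, against 20.8%. Pcna was lower on all 3 days, by -0.48 ± 0.13, -0.65 ± 0.10 and -0.52 ± 0.10 (adjusted p = 0.00775, 8.06e-08 and 4.4e-05). Its day-7 signals were 299.4, 328.8 and 392.6 (lowest, median and highest) in left legs, against 450.7, 549.0 and 584.1 in sham legs, with no overlap. Mcm2 (1.08) and Racgap1 (0.91) were higher at day 7, Tpx2 (0.62) and Mcm7 (0.33) at day 14, and Aurka was lower at day 14 (-0.55). Nearest to 0 were Nusap1 (0.01), Ccna2 (-0.02) and Aurka (0.03) at day 2, Cenpa (0.02), Rrm1 (0.04) and Aurka (-0.04) at day 7, and Top2a (0.01), Tk1 (-0.02) and Cenpa (-0.03) at day 14. Without the left leg high in neutrophil markers, 3 genes passed at day 2. Left-minus-right, right-minus-sham and left-minus-sham differences share their arrays and are not independent of each other.

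**Figure D3:**
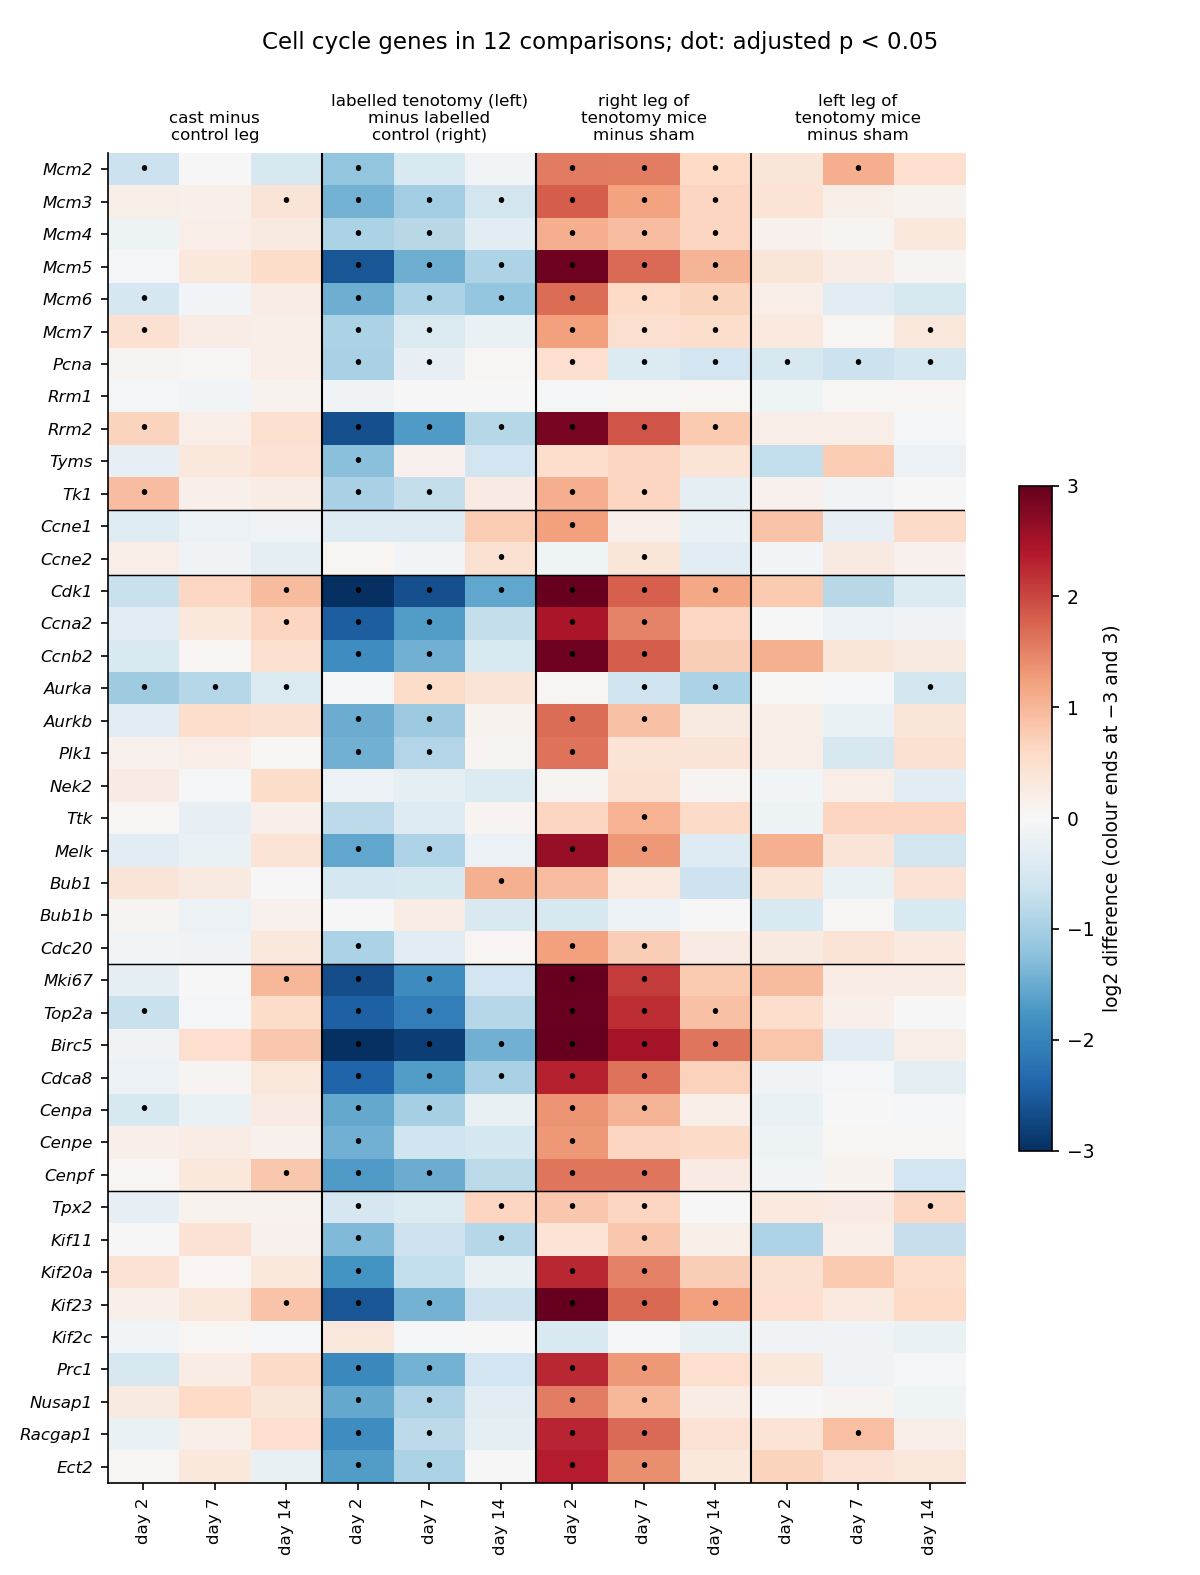
Mean log2 difference of each of the 41 genes (rows, by role) in 12 comparisons (columns), with colour for the log2 difference (ending at -3 and 3) and a dot for an adjusted p under 0.05. Left-minus-right columns of the tenotomy mice hold 32, 25 and 8 genes called lower at days 2, 7 and 14, and cast columns hold 5, 1 and 1.

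Between sham-operated and naive muscle no gene was called: 0 of 41 passed limma's test at days 2, 7 and 14, with 2, 6 and 5 genes at an unadjusted p under 0.05. Among all tested genes 0%, 0.631% and 2.27% passed. Mki67 had a lowest, median and highest signal of 10.64, 17.95 and 35.0 in sham legs of day 7 and 10.06, 11.93 and 21.94 in sham legs of day 14, against 3.875, 16.77 and 34.52 in naive legs. The control legs of cast mice, averaged over days, had 7 genes above naive legs and 0 below (1 lower at an unadjusted p under 0.05), against 32.7% of tested genes called and 19.9% higher. The 7 were Top2a (0.79 ± 0.24), Prc1 (0.71), Mcm2 (0.66), Mcm3 (0.55), Tpx2 (0.49), Mcm6 (0.42) and Rrm1 (0.20). Without the arrays high in neutrophil markers Mcm6 was at 0.41 (adjusted p = 0.0637) and 6 genes passed. In this comparison the leg side, the animals and the cast on the other leg cannot be told apart.

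In cast legs at day 2, 3 genes were higher and 5 lower than in the control legs of cast mice, against 24.3% of tested genes called, 11.0% higher and 13.3% lower. Neither count exceeds the share over all genes. The 3 higher genes belong to replication and nucleotide supply, as do Mcm2 and Mcm6 among the 5 lower ones. Tk1 had a lowest, median and highest signal of 29.08, 71.65 and 100.1 in cast legs, against 12.66, 35.63 and 48.31 in control legs. The median cast leg was above every control leg, and the difference was 0.93 ± 0.17 (adjusted p = 3.9e-06), higher in 9 of 9 mice. Mcm7 had 182.5, 233.0 and 269.4 in cast legs, against 138.4, 165.3 and 184.5 in control legs (0.47 ± 0.08, adjusted p = 5.75e-07), also in 9 of 9 mice. Rrm2 had 26.38, 34.19 and 47.04 in cast legs, against 10.47, 18.37 and 51.9 in control legs, where 1 leg was above all cast legs (0.66 ± 0.21, adjusted p = 0.0128, higher in 7 of 9 mice).

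The 5 genes lower in cast legs at day 2 were Aurka, Top2a, Mcm2, Mcm6 and Cenpa. Aurka had 21.69, 36.15 and 61.56 in cast legs, against 57.83, 73.0 and 116.4 in control legs, with only the highest cast leg above the lowest control leg. The difference was -1.07 ± 0.12 (adjusted p = 1.14e-12), lower in 9 of 9 mice. Top2a was lower by -0.66 ± 0.25 (adjusted p = 0.036), Mcm2 by -0.64 ± 0.19, Mcm6 by -0.50 ± 0.18 and Cenpa by -0.49 ± 0.14. Mki67 had 5.202, 11.15 and 19.98 in cast legs, against 4.492, 12.09 and 34.47 in control legs, and the groups overlapped throughout. The median over the 41 genes was -0.07, against -0.03 over all tested genes. The values nearest to 0 were those of Kif11 (0.00), Ect2 (0.03) and Mcm5 (-0.05).

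At day 7 of casting, 1 gene was lower and 0 were higher (2 higher at an unadjusted p under 0.05), against 8.78% of tested genes called, 4.22% higher and 4.56% lower. That gene was Aurka, with 28.52, 39.13 and 77.75 in cast legs, against 43.51, 80.76 and 104.9 in control legs (-0.85 ± 0.13, adjusted p = 8.83e-07, lower in 6 of 7 mice). Mcm2, Mki67 and Pcna were nearest to 0, at 0.01, 0.02 and 0.03.

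At day 14 of casting, 6 genes were higher and 1 was lower, against 13.2% of tested genes called, 7.19% higher and 6.05% lower. Mki67 had a lowest, median and highest signal of 19.17, 30.23 and 101.4 in cast legs, against 8.318, 14.84 and 37.97 in control legs, overlapping groups that differed by 0.99 ± 0.27 (adjusted p = 0.00664, higher in 7 of 9 mice). Cdk1 had 4.339, 15.09 and 64.63 in cast legs, against 0.728, 4.69 and 24.14 in control legs (0.96 ± 0.34, adjusted p = 0.0467). Kif23, Cenpf and Ccna2 were higher by 0.86 ± 0.28, 0.81 ± 0.29 and 0.64 ± 0.23 (adjusted p = 0.0254, 0.0471 and 0.0483), and Mcm3 by 0.38 ± 0.11 (adjusted p = 0.0159). Aurka was lower by -0.42 ± 0.12 (adjusted p = 0.00969). Bub1 (-0.00), Plk1 (0.04) and Kif2c (-0.06) lay nearest to 0. In none of the 41 genes were all cast legs above, or all below, all control legs on any of the 3 days. Such separation was rare in all tested genes too: 1.09%, 0.269% and 0.312% above and 1.19%, 0.469% and 0.512% below at days 2, 7 and 14.

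The count at day 14 of casting changed without the arrays high in neutrophil markers. The mitosis levels of those 3 cast legs were 0.69, 0.72 and 1.40, against 0.14 to 0.77 in the other 6 cast legs, which overlap them. Without the 7 arrays, 0 genes were higher and 1, Aurka, was lower. Mki67 was then at 0.62 (adjusted p = 0.189), Cdk1 at 0.61 (adjusted p = 0.386), Kif23 at 0.61 (adjusted p = 0.277) and Cenpf at 0.79 (adjusted p = 0.171). Ccna2 was at 0.38 (adjusted p = 0.425) and Mcm3 at 0.32 (adjusted p = 0.155). With array weights 14 genes passed at day 14, and with an offset of 1 there were 4. Macrophage markers moved with this comparison too: 12 of 13 were higher in cast legs, with a summed signal of 3703 to 7993 in cast legs and 2085 to 4312 in control legs. Their part in the result was not tested.

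Levels across all groups were taken from the medians of the 16 groups. For Mki67 the 3 medians of right legs of tenotomy mice ran from 30.71 at day 14 to 169.1 at day 2, while the 7 medians of left tenotomy, sham and naive legs lay between 11.93 and 25.5 and the 6 of cast mice between 11.15 and 30.23. For Top2a these ranges were 24.09 to 120.0, 10.11 to 17.45 and 9.74 to 27.33. For all 7 mitosis genes given here the lowest of the 3 right-leg medians was that of day 14. For Cdk1 the ranges were 20.83 to 87.48, 0.945 to 7.992 and 1.104 to 20.55, and for Birc5 18.45 to 80.54, 1.016 to 5.082 and 2.178 to 16.55. Ccna2 had 33.6 to 122.4, 14.52 to 21.36 and 17.1 to 40.61, and Ccnb2 17.53 to 55.63, 3.041 to 10.43 and 6.846 to 17.73. Cenpa had 33.01 to 74.98, 17.92 to 28.72 and 17.2 to 30.57. The highest of the 16 medians was that of right legs of tenotomy mice at day 2 in 24 of all 28 mitosis genes and 9 of 11 replication genes. The exceptions were Aurka and Kif2c, highest in sham legs of day 7, Kif20a and Bub1b, highest in right legs of tenotomy mice at days 7 and 14, Rrm1, highest in sham legs of day 2, and Tyms, highest in right legs of tenotomy mice at day 14. Ect2, Melk and Ttk, which passed the filter only through right legs, are among the 24 mitosis genes.

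The replication genes had less even ranges. In the same order of groups, Mcm5 medians ran over 33.92 to 138.7, 14.7 to 22.32 and 19.01 to 30.22, and those of Mcm6 over 77.63 to 142.5, 32.12 to 56.82 and 57.38 to 88.26. The right-leg medians of both helicase genes were highest at day 2 and lowest at day 14. Rrm2 had 27.79 to 175.4, 13.12 to 27.21 and 18.37 to 34.19. Tk1 had 31.23 to 91.13, 30.54 to 47.28 and 32.21 to 71.65, the last being cast legs of day 2. Pcna had 351.3 to 668.4, 320.4 to 549.0 and 521.3 to 569.0, so that its right-leg median of day 14 was below every median of cast mice. Tyms stayed near or below the filter level, at 7.921 to 12.68, 1.309 to 9.435 and 3.008 to 7.651. Ccne1 had 10.66 to 27.64, 8.242 to 26.24 and 8.885 to 13.92, and Ccne2 40.0 to 47.92, 34.6 to 53.59 and 31.05 to 50.81, so that the ranges overlapped for both cyclin E genes. The highest Ccne1 median, 27.64, was still that of right legs of tenotomy mice at day 2. All these legs were above all sham legs of day 2 and all naive legs, as for 17.7% and 14.2% of tested genes.

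The difference between the models was tested directly, as right minus left leg in tenotomy mice minus right minus left leg in cast mice. At day 2, 32 genes were higher and 0 lower (0 at an unadjusted p under 0.05), against 34.1% of tested genes called. Leaving out Ect2, Melk and Ttk, 30 of 38 were higher. Cdk1 differed between the models by 4.10 ± 0.57, Birc5 by 3.31, Top2a by 3.11, Mki67 by 2.96 and Ccna2 by 2.82. The smallest differences at day 2 were those of Tk1 (0.04), Nek2 (-0.08) and Bub1b (-0.10). At day 7, 15 genes were higher and 0 lower (0 unadjusted), against 18.9%, led by Birc5 (2.33), Top2a (2.10), Cdk1 (2.02), Mki67 (1.86 ± 0.43) and Cdca8 (1.60). Without the same 3 genes, 14 of 38 were higher at day 7. At day 14, 1 gene was higher, Mcm6 (0.93, adjusted p = 0.0394), and 1 lower, Tpx2 (-0.75, adjusted p = 0.0401), against 8.15%, while Cenpf (0.00), Prc1 (-0.00) and Ccnb2 (-0.01) lay at 0. With the mean of probe sets, 0 genes were higher and 1 was lower at day 14. Under the other reading of the tenotomy labels, the right leg is the treated one in both models.

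The change of the leg difference from day 2 to day 14 was also tested. In tenotomy mice the left-minus-right difference at day 14 was above that at day 2 for 22 genes and below it for 0 (0 unadjusted), against 8.17% of tested genes called. Leaving out Ect2, Melk and Ttk, it was above for 20 of 38. Mki67 moved by 2.10 ± 0.52, Kif23 by 1.94, Rrm2 by 1.80 and Ccna2 by 1.76, whereas Rrm1 (0.12), Nek2 (-0.23) and Mcm6 (0.31) moved least. Ect2, which passed the filter only through right legs, moved by 1.69. In cast mice the cast-minus-control difference was larger at day 14 for 8 genes, among them Cdk1 (1.62), Mki67 (1.29), Top2a (1.21), Prc1 (1.06) and Ccna2 (0.98), and smaller for 3, Tk1 (-0.70), Ccne2 (-0.51) and Mcm7 (-0.30), against 14.3% of tested genes called, 8.26% higher and 6.03% lower. Without the arrays high in neutrophil markers 3 genes passed in cast mice, 1 larger (Aurka) and 2 smaller (Tk1 and Mcm7). Cdk1, Mki67, Top2a, Prc1, Ccna2 and Ccne2 thus lost their calls.

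Replication and mitosis genes were then set side by side within each mouse. At day 2 of tenotomy the right-minus-left difference of the class means was 1.18 to 1.45 for replication genes and 1.07 to 1.76 for mitosis genes over 5 mice, and the mitosis difference was the larger one in 4 of 5. At day 7 the ranges were 0.20 to 1.22 and 0.51 to 1.37, and the mitosis difference was larger in 7 of 7 mice, by 0.04 to 0.69. At day 14 they were 0.21 to 0.65 and 0.07 to 0.56, and it was larger in 2 of 4. Right legs were higher in both classes in all 16 tenotomy mice with 2 legs. Cyclin E genes did not follow: their difference was positive in 4 of 5, 5 of 7 and 0 of 4 mice. In cast mice the right leg had the higher mitosis mean in 4 of 9, 3 of 7 and 7 of 9 mice, and the higher replication mean in 7 of 9, 5 of 7 and 6 of 9. The log2 ratio of 3' to 5' actin signals, a measure of RNA integrity, was higher in the right leg in 5 of 5, 6 of 7 and 4 of 4 tenotomy mice, and in 5 of 9, 1 of 7 and 1 of 9 cast mice; its part in the result was not tested.

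**Figure D4:**
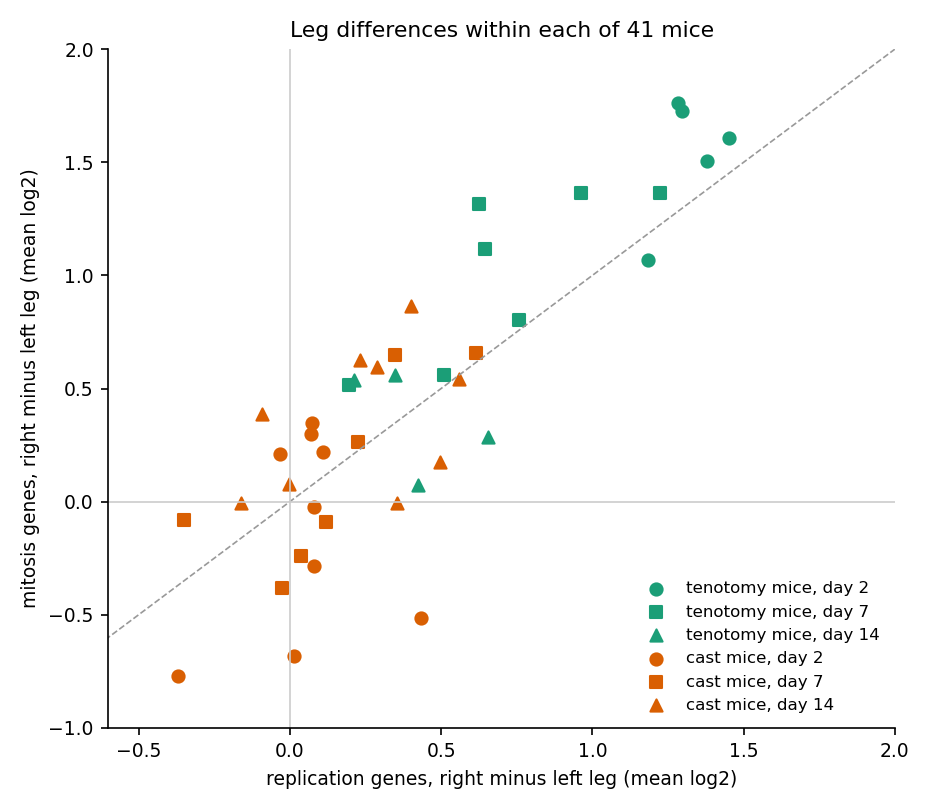
Right-minus-left difference of the mean log2 signal of replication genes (x axis) and mitosis genes (y axis), 1 point per mouse with both legs, by model and day. Tenotomy mice of day 2 lie between 1.18 and 1.45 on the x axis and between 1.07 and 1.76 on the y axis, and all 16 tenotomy mice lie above 0 on both.

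For several genes the probe set used and the other probe sets differed. Of the 30 genes with more than 1 probe set (97 in all), all probe sets were lower in left legs at day 2 in 18 genes, signs differed in 12, and 81 probe sets were lower. For Bub1b the probe set used gave 0.02, whereas the other 2 gave -2.09 and -2.25, with mean signals of 6.69 and 3.72 in left legs, against 37.43 and 29.66 in right legs. Kif2c gave 0.35 on the probe set used and -1.87, -1.23 and -0.39 on the others. Nek2 gave -0.17, against -1.58, -0.10 and 0.22, and Bub1 -0.52, against -2.55 on a probe set with a mean of 0.53 in left legs and 23.13 in right legs. Cdc20 gave -0.95, against -2.95 and 0.03. Ccne1 gave -0.39, against -0.99 on a probe set with a mean of 17.29 in left legs and 32.39 in right legs. Tpx2 went the other way, at -0.51 on the probe set used and 0.33, 0.21 and 0.30 on the others, so that the mean over its probe sets was 0.09. The probe set of highest mean is thus not the most responsive one for Bub1b, Kif2c, Nek2, Bub1, Cdc20 and Ccne1, a choice of genes made after their values were seen.

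**Figure D5:**
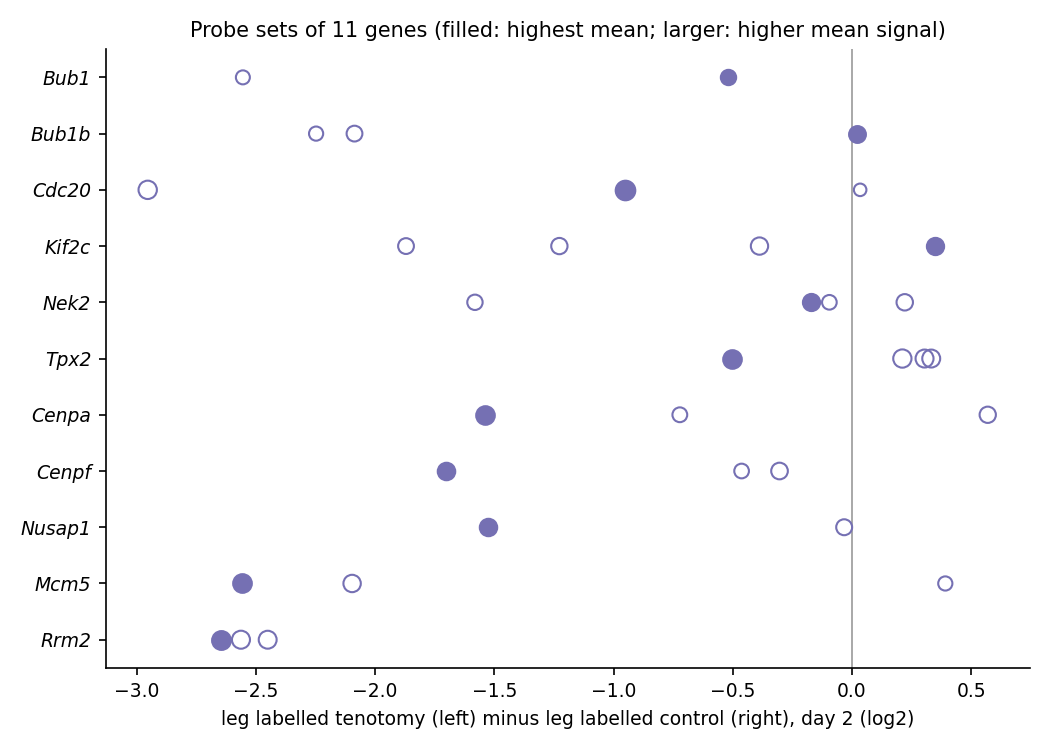
Left-minus-right log2 difference at day 2 of tenotomy for every probe set of 11 genes (x axis, log2 units), by gene, filled for the probe set used and larger for a higher mean signal. For Bub1b the probe set used lies at 0.02 and the others at -2.09 and -2.25.

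Cell-cycle genes outside the 42 were counted in the same fits, where 20.8%, 18.4% and 13.5% of all tested genes were lower in left than in right legs of tenotomy mice at days 2, 7 and 14. Of 36 other replication genes 24, 12 and 4 were lower and 0, 0 and 1 higher, the count at day 14 being near the share over all genes. Of 48 other mitosis genes 38, 35 and 8 were lower and 1, 0 and 0 higher, again near that share at day 14. At day 2 the largest were Ube2c (-2.33), Sgo2a (-2.29) and Cep55 (-2.29) of the mitosis list and Uhrf1 (-2.12), Gins2 (-1.86) and Cdt1 (-1.82) of the replication list. At day 7 Plk4 (-1.48), Pbk (-1.42) and Nuf2 (-1.42) led the mitosis list, and at day 14 Sgo2a (-1.38) and Nuf2 (-1.31). The 20 regulators of G1 gave 12 lower and 2 higher at day 2, led by Myc (-2.18), Ccnd1 (-1.46) and E2f8 (-1.43). Of 11 inhibitors and brakes of the cycle, 3 were lower at day 2, a share near that over all genes: the p53-induced inhibitor Cdkn1a (-1.46), Btg1 (-1.30) and Gadd45a (-0.62). In cast legs Gadd45a was higher by 1.25 and Ccnd1 lower by -0.83 at day 2. At day 14 of casting, where 7.19% of tested genes were higher, 9 other mitosis genes were higher, led by Nuf2 (1.02), Foxm1 (0.95) and Smc2 (0.80), and 6 other replication genes, led by Uhrf1 (0.91). No count for these lists was made without the 7 arrays high in neutrophil markers.

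Markers of other cells moved with the same comparisons. All 13 macrophage markers were lower in left than in right legs of tenotomy mice at days 2 and 7 and 10 at day 14, led at day 2 by Mpeg1 (-5.59), Gpnmb (-4.54) and Lyz2 (-3.76). Their summed signal was 932.1 to 1946 in left legs and 12860 to 16380 in right legs at day 2, 1041 to 2214 in left legs and 3764 to 9645 in right legs at day 7, and 1054 to 1623 in left legs and 2635 to 4582 in right legs at day 14. Of 8 fibroblast markers 7, 8 and 7 were lower in left legs, led at day 2 by Postn (-4.22), Col3a1 (-1.64) and Col1a1 (-1.63), and of 5 tendon cell markers 2, 5 and 4, with Thbs4 at -1.75 at day 2. Of 8 satellite cell and myoblast markers 5, 2 and 2 were lower, with Myog at -1.95 and Vcam1 at -1.57 at day 2. Fibre genes went the other way, 4 of 7 being higher in left legs at day 2, with a summed signal of 94500 to 107700 in left legs and 60510 to 88100 in right legs. The summed signal of 4 immature fibre genes was also higher in left legs. It was 1620 to 4738 in left and 664.7 to 1431 in right legs at day 2, and 4022 to 11280 and 803.3 to 2029 at day 7. At day 14 the sums overlapped, at 2527 to 5993 and 1586 to 3592. Naive legs had 6678 to 13770, with a median of 9607, above the left-leg medians of 3410, 6289 and 3961. Sham legs had medians of 5723, 7370 and 3958. The name of this list is thus not read as a state of the fibres. In cast legs of day 2, where the 41 genes had a median of -0.07, 9 of 13 macrophage markers were lower and 1 was higher. Of 5 neutrophil markers 1, 2 and 0 were lower in left legs on the 3 days, of 7 lymphocyte markers 0, 1 and 1, and of 6 endothelial markers 1, 0 and 0. Of 4 Schwann cell and 3 erythroid markers none passed limma's test in either direction in this comparison. The part of these cells in the results was not tested. No marker signal was 0, the lowest signal of any probe set being 0.0116.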

How the data were processed

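Total RNA (6 ug per array) was hybridised to Affymetrix expression arrays. The intensities deposited by the authors are MAS5 signals on a linear scale made with GCOS, per the submitters' processing notes, with no missing value among 45101 probe sets on 111 arrays. Versions and the scaling target are not given in the sources used here. After leaving out 2 percent at each end, the mean signal per array was 99.95 to 99.97, so the arrays had been scaled before deposit. Scaling sets each array's total equal, so a signal is relative to all others on its array. Signals ran from 0.0116 to 27000, and the arrays' medians from 16.14 to 26.36.

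Of the probe sets, 34958 named 1 gene in the platform annotation, 932 named several and 9211 none. Only those with 1 gene were named. Of each gene's probe sets the one with the highest mean log2 signal was kept. Signals were transformed as log2(signal + 3.982), the offset being the 20th percentile of all values, so that fold changes of dim genes are understated. A gene was tested if it was above the 40th percentile of its array on at least 5 arrays. limma 3.58.1 (R 4.3.3) fitted the 16 group means with the animal as a random block (duplicateCorrelation, consensus correlation 0.0964) and a variance trend. p-values were adjusted by Benjamini-Hochberg over the 16008 genes within each of 21 comparisons, and a gene was called at an adjusted p under 0.05. The fit was tested on simulated data.

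Animal numbers in the labels pair the legs (25 cast and 16 tenotomy mice). The residuals of paired legs correlated at 0.0634 on average, over 0.1 in 13 of 41 pairs. Replicate numbers in the titles pair nothing.

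The members and lists were chosen with earlier results of these data known. Genes were named by rule: 16 fixed members by their groups, in each comparison the 5 called members with the largest difference in each direction and the 3 nearest 0, and from each other list the 3 called genes with the largest difference, of which those at day 2 of tenotomy are mostly given. Promoters come from RefSeq on GRCm38.p6. Figures and tables used Python 3.11.15, pandas 2.3.3 and matplotlib 3.10.9. Alternatives changed the offset, the filter, the normalization, the block, the probe set rule and the arrays used.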

Additional observations from a re-analysis of the deposited data

Results flagged for a closer look

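Dixon's test was applied to 150 groups of values, and 11 had an array apart from the rest, where chance flags about 1 group in 20. Mki67 was 29.72 in 1 right leg of tenotomy mice at day 7, against 80.64 to 151.1 in the other 6. Cdk1 was 6.87 in 1 left leg of day 14, against 0.824 to 1.974 in the other 4. Birc5 was 36.99 in 1 left leg of day 2, against 1.177 to 4.545 in the other 4. The same gene was 23.19 in 1 control leg of a cast mouse at day 2, against 1.103 to 6.853, and 5.811 in 1 sham leg of day 14, against 0.715 to 2.462. Rrm2 was 14.19 in 1 cast leg of day 7, against 27.57 to 42.79. Pcna was 450.7 in 1 sham leg of day 7, against 535.0 to 584.1. Aurka was 43.51 in 1 control leg of a cast mouse at day 7, against 71.39 to 104.9.

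Among the class levels, in log2 units from naive muscle, the mitosis level was 1.4 in 1 cast leg of day 14, against 0.14 to 0.77 in the others. It was 0.601 in 1 sham leg of day 14, against -0.08 to 0.13. The cyclin E level was -0.648 in 1 cast leg of day 7, against -0.20 to 0.12.

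Differences between groups were tested in limma as interaction terms. The leg difference changed from day 2 to day 14 in 22 genes in tenotomy mice and in 11 genes in cast mice. The leg difference of tenotomy mice differed from that of cast mice in 32, 15 and 2 genes at days 2, 7 and 14. Leaving out Ect2, Melk and Ttk, the change in tenotomy mice held 20 genes, and the model difference 30 and 14 at days 2 and 7.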

How the results depend on the processing

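Of 258 calls of a member in a comparison, 83 were lost under at least 1 alternative, 76 of them under one other than leaving out 1 array. Averaging over probe sets lost 46 calls and turned 1, Tpx2 between left and right legs of tenotomy mice at day 2, which became 0.0854. At day 14 of casting, 7 genes were called, and the count was 4 with an offset of 1, without the filter, with no replicate block or with the mean of probe sets, 14 with array weights and 1 without the 7 arrays high in neutrophil markers. At days 2 and 7 of casting, the counts of 8 and 1 became 5 with the mean of probe sets and 2 with array weights. For left legs of tenotomy mice against sham at day 2, the count of 1 became 2 with an offset of 1 or quantile normalization and 3 without the arrays high in neutrophil markers. Sham against naive gave 0 at days 7 and 14 and 1 with an offset of 16, with array weights (day 7) or with the stricter filter (day 14). For the model difference at day 14, the count of 2 became 1 with an offset of 16, the mean of probe sets, the fixed block, or without 3 arrays whose lowest signals were raised, and 0 without the block. The change of the cast leg difference fell to 5 genes with the mean of probe sets and 3 without the arrays high in neutrophil markers, against 11. The causes were not tested.

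Without the replicate block, left against right legs of tenotomy mice gave 32, 26 and 10 calls at days 2, 7 and 14, and with the animal as a fixed replicate block, which uses only paired legs, 32, 27 and 6, against 32, 26 and 11. With the fixed block the change of the cast leg difference was called in 7 genes. Leaving out 1 array at a time gave 31 to 33 calls for left against right legs at day 2, 7 to 12 at day 14 (7 without left replicate 4), 0 to 3 for left legs against sham at day 2 (0 without sham replicate 2, 3 without left replicate 1), 0 to 2 for the model difference at day 14 and 15 to 24 for the change of the tenotomy leg difference. Signals near the floor limit Ect2, Ttk, Melk, Bub1, Tyms and Kif20a, with mean signals from 5.217 to 6.913, and the size of the differences of Cdk1 and Birc5. Sham at day 2 had 3 arrays.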
